A study of Mus musculus with 360 samples.

Results

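Vcam1 and Krt18 were followed through 5 mouse tissues and 2 isomers of dichlorobenzene, as every probe of the targeted panel that carries either symbol. These were 3 of 3154 probes: Vcam1 31980, Vcam1 30862 and Krt18 29525 (the numbers are the panel's own probe numbers). The panel held 2759 gene symbols in all. The choice of genes used measured values: Vcam1 31980 was among the most changed probes of the lung in mice exposed to 10, 30 and 100 ppm of 1,2-dichlorobenzene. Which result brought Krt18 in is not recorded. Changes of either gene in the lung with 1,2-dichlorobenzene, and every exposure change of Krt18, are therefore given as values without a test, while Vcam1 elsewhere is given with its test.

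All animals were female B6D2F1/Crl (BDF-1) mice, a hybrid strain, aged 9 weeks, with tissue taken on study day 5. In the 1,2-dichlorobenzene (1,2-DCB) series, 10 mice received 0 ppm, 5 each received 1, 10, 30 or 100 ppm, and 7 received 250 ppm. The 1,4-dichlorobenzene (1,4-DCB) series had its own 10 mice at 0 ppm and 5 each at 1, 10, 50, 150 and 400 ppm. Each isomer is a benzene ring with a pair of chlorine atoms, on neighbouring carbons in 1,2-DCB and on opposite ones in 1,4-DCB. Liver (left lobe), kidney, lung, heart and both ovaries were sampled, and the route of exposure is not given in the sources used here. Replicates were different animals within a tissue, and the same animals gave all tissues. RNA came from pieces of whole tissue, so fewer cells of a type and less RNA per cell cannot be told apart in any value below.

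Vcam1 encodes vascular cell adhesion molecule 1, a protein of the endothelial surface that binds the integrin alpha4beta1 on lymphocytes, monocytes and eosinophils and slows them on the vessel wall. It is induced by tumour necrosis factor and interleukin-1 through the transcription factor NF-kB, and it is also made by some macrophages and stromal cells. Krt18 encodes keratin 18, a type I keratin that pairs with the type II keratin 8 (Krt8) to form the intermediate filaments of simple epithelia. Keratins 8 and 18 are the keratins of hepatocytes and are found in the epithelia of lung, kidney tubule and ovarian surface, whereas heart muscle cells use desmin instead.

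Of 360 libraries, 326 carried the submitters' mark for use and entered the tests, and the other 34 (21 kidney, 11 liver, 2 lung) did not. The median number of counts per used library, in units of 1e+06, was 20.1 for lung, 19.4 for liver, 12.5 for kidney, 12.3 for heart and 5.93 for ovary, and all 3 probes had counts in all 360 libraries. Summed hepatocyte markers in unexposed mice reached 113309 to 166207 CPM (scaled counts per 1e+06 counts of a library) in liver and at most 2269 elsewhere, and cardiomyocyte markers 212492 to 323129 CPM in heart and at most 766 elsewhere. Ovarian markers reached 5187 to 21688 CPM in ovary against at most 37.1 elsewhere, and the only measured kidney tubule marker 779 to 2020 CPM in kidney against at most 1.23. None of the 8 lung epithelial markers was on the panel, so the epithelial part of the lung label was not checked. Some libraries stood apart for the genes described here: 2 kidneys with high Vcam1, 5 ovaries with low Krt18 and 3 of the 6 livers at 250 ppm of 1,2-DCB with high Vcam1.

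In unexposed mice, the median of Vcam1 was highest in lung and that of Krt18 lowest in heart. The median of Krt18 was highest in liver with scaling for composition, and in ovary by total counts. With all tissues scaled together, Vcam1 31980 had a median of 291 CPM in lung (234 to 321, n = 20), 98.8 in heart (77.2 to 247, n = 20) and 62.5 in ovary (37.5 to 128.7, n = 20). Its medians were 56.9 CPM in liver (38.02 to 75.8, n = 16) and 49.4 in kidney (39.5 to 138.2, n = 11). The lung lay above heart by 1.38 ± 0.11 (log2 difference ± SE) and heart above ovary by 0.76 ± 0.11. The neighbours liver and ovary (difference -0.22 ± 0.12, adjusted p = 0.069) and liver and kidney (-0.07 ± 0.14, adjusted p = 0.65) did not pass edgeR's quasi-likelihood test with Benjamini-Hochberg adjustment. With the animal as a block, liver minus ovary did (-0.21, adjusted p = 0.045). In these pairs of tissues 82.0% of all probe tests passed an adjusted p of 0.05, so a difference between tissues was the usual case for a probe.

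Vcam1 30862 gave 75.4 CPM in lung (64.7 to 89.99), 26.5 in heart (16.9 to 66.2), 19.6 in liver (13.99 to 29.4), 17.5 in kidney (11.8 to 55.6) and 13.9 in ovary (8.6 to 26.7). Both Vcam1 probes placed lung first and heart second, and they differed in where ovary fell. By the second probe, kidney lay above ovary by 0.54 ± 0.15 (adjusted p = 0.0006), while by the first the difference was -0.15 ± 0.13 (adjusted p = 0.28). Krt18 had medians of 2506 CPM in liver (1999 to 3097), 900 in lung (522 to 1210.5), 717 in ovary (89.2 to 1155), 206 in kidney (126.04 to 617) and 24.4 in heart (11.8 to 59.6). With this scaling, liver and heart did not overlap with any other tissue for Krt18, while lung and ovary overlapped widely.

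Apart from lung being highest for Vcam1 and heart lowest for Krt18, the order of the tissues depended on the scaling. In CPM of the total count, with no scaling for composition, the medians of Vcam1 31980 were 340 in lung, 144.9 in ovary, 63.03 in kidney, 52.7 in heart and 26.7 in liver. Those of Vcam1 30862 were 91.1 in lung, 31.6 in ovary, 22.8 in kidney, 14.03 in heart and 9.11 in liver. Krt18 then stood at 1652 in ovary, 1211 in liver, 1077 in lung, 274 in kidney and 13.2 in heart. Its range in liver (945 to 1556) then overlapped those in lung (584 to 1552) and ovary (205 to 2544). The highest tissue for Krt18 thus changed from liver to ovary and the lowest for Vcam1 31980 from kidney to liver, while under both scalings lung was highest for Vcam1 and heart lowest for Krt18.

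**Figure D1:**
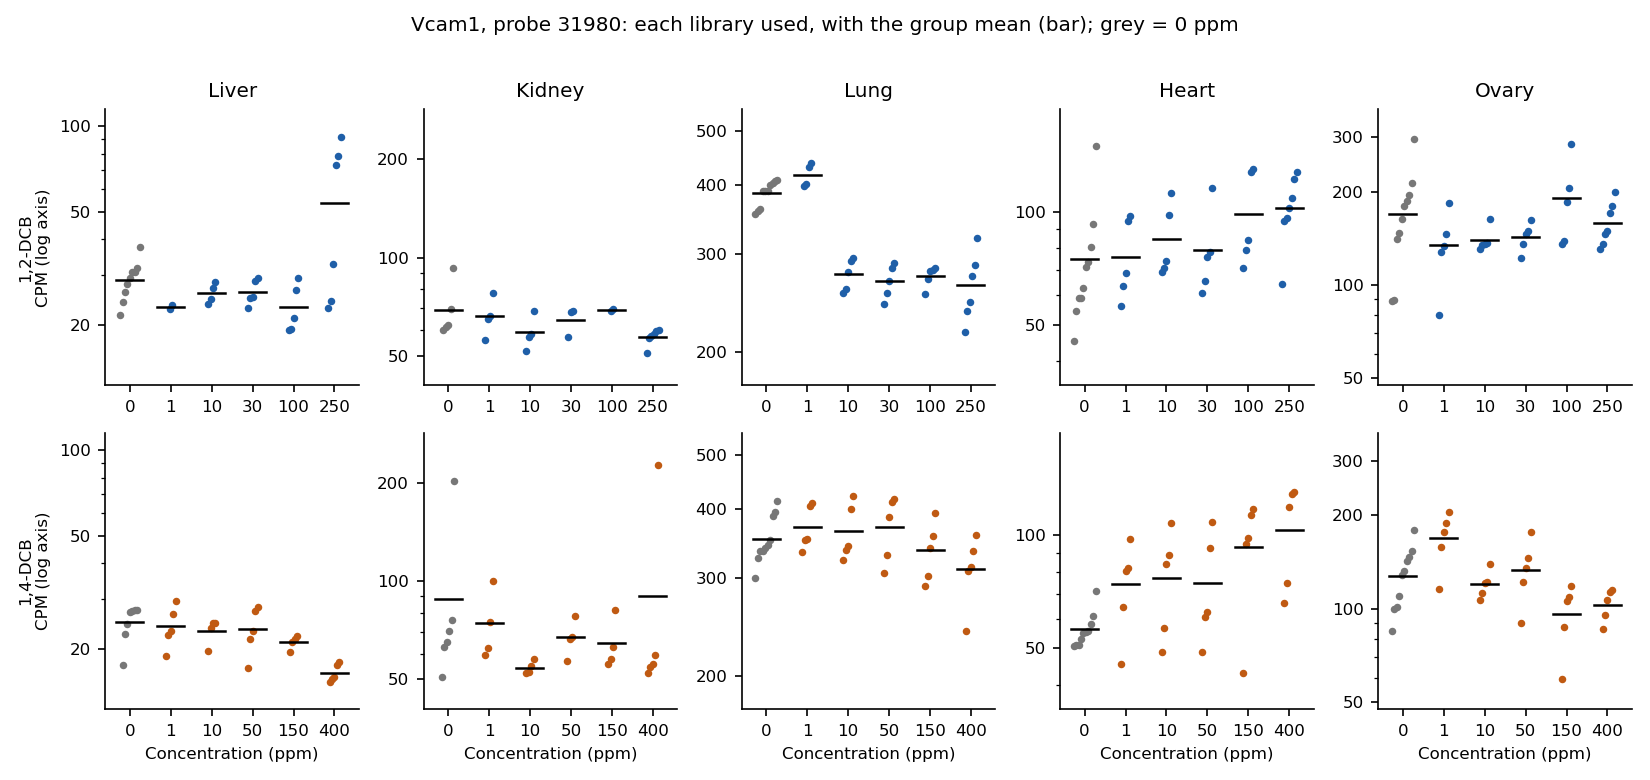
Vcam1 31980 in every used library, in CPM scaled within each tissue (log axis), against the concentration in ppm, with 1,2-DCB above and 1,4-DCB below. Points are mice, bars group means and grey the 0 ppm mice. In lung, all libraries at 10 to 250 ppm of 1,2-DCB lie below the lowest 0 ppm library (354 CPM).

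In the lung, Vcam1 was lower at every 1,2-DCB concentration from 10 to 250 ppm, by about the same amount at each, and not at 1 ppm. Vcam1 31980, now scaled within the lung, ranged from 354 to 408 CPM at 0 ppm with a median of 390 (mean 387 ± 20.3, SD, n = 10). At 1 ppm the 4 libraries had 399, 402, 431 and 438 CPM, at or above the upper part of the control range. At 10 ppm the 5 libraries had 256, 260, 279, 292 and 295 CPM (mean 276 ± 18.005). None of these reached the lowest control.

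Values were alike at the next concentrations: 245, 256, 268, 283 and 290 CPM at 30 ppm and 254, 271, 280, 281 and 283 CPM at 100 ppm. The 6 libraries at 250 ppm spread more, with 218, 237, 246, 274, 287 and 321 CPM, and all of them still lay below the controls. As log2 changes these were +0.11 at 1 ppm and -0.48, -0.53, -0.50 and -0.55 from 10 to 250 ppm, each with an SE of 0.08. From 10 to 250 ppm the group means stayed between 264 and 276 CPM.

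The second probe, Vcam1 30862, gave the same picture at a lower count. At 0 ppm it ranged from 87.5 to 112.2 CPM, with a median of 97.2. It ranged from 75.5 to 84.9 CPM at 10 ppm, 55.4 to 78.0 at 30 ppm, 68.5 to 84.3 at 100 ppm and 53.7 to 72.6 at 250 ppm. All of these libraries too lay below all 10 controls. The log2 changes were -0.32, -0.47, -0.36 and -0.54 (SE 0.11 each), and at 1 ppm the range of 65.3 to 114.9 CPM spanned the controls (-0.02 ± 0.12). Across all probes, 1.89% of 2756 passed an adjusted p of 0.05 in the lung at 10 ppm, 4.57% at 30 ppm, 6.53% at 100 ppm and 32.6% at 250 ppm. Since Vcam1 was chosen from these contrasts, nothing is read from its place among those probes.

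The differences were smaller in CPM of the total count: -0.39, -0.42, -0.19 and -0.13 for Vcam1 31980 from 10 to 250 ppm. That scaling moved the median of all probes by +0.09, +0.11, +0.31 and +0.40. The main scaling leaves that median almost unmoved. Setting Vcam1 against the median probe would therefore only restate the main values and is no separate check. At 250 ppm all 6 red cell probes fell in the main scaling, with a median of -2.29, and their part in the result was not tested.

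Vascular endothelial cells are among the cells that carry Vcam1. None of 9 endothelial probes passed the test at 10, 30 or 100 ppm, near the shares of all probes (1.89%, 4.57% and 6.53%), where their medians were -0.01, -0.14 and -0.07 against -0.01, -0.01 and 0.00 for all probes. At 250 ppm, where 32.6% of all probes passed, 4 of the 9 fell, with a median of -0.34: Kdr, the main receptor for vascular endothelial growth factor (-0.41 ± 0.13), Pecam1, an adhesion protein of endothelial junctions (-0.34 ± 0.11), Tek, the angiopoietin receptor (-0.29), and Cldn5, a tight junction protein (-0.46). Summed endothelial counts were 1633 to 2563 CPM in the 0 ppm lungs and 1424 to 2007 CPM in the 250 ppm lungs, which overlap. The part of endothelial cells in the lower Vcam1 was not tested.

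Of 15 probes for integrins, selectin ligands and related adhesion genes, none passed at 10 or 30 ppm, 2 at 100 ppm and 4 at 250 ppm, against 1.89%, 4.57%, 6.53% and 32.6% of all probes. At 100 ppm Itgb2, the shared chain of the leukocyte integrins, rose (1.09 ± 0.34) and Msn, the membrane linker moesin, fell (-0.21). At 250 ppm 4 fell, with a list median of -0.16 against -0.02 for all probes: Msn (-0.25 ± 0.07), Selplg, the P-selectin ligand (-0.38 ± 0.12), Pecam1, and Itgb1, the beta chain that pairs with alpha4 to bind VCAM1 (-0.16 ± 0.05).

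Among 21 probes of the NF-kB and tumour necrosis factor pathway, 1 fell at 10 and at 30 ppm, the interleukin-1 receptor Il1r1 (-0.33 and -0.39). Birc3, an NF-kB target that limits cell death, was the only one to pass at 100 ppm (-0.36). Of all probes, 1.89%, 4.57%, 6.53% and 32.6% passed at 10, 30, 100 and 250 ppm. The 1 of 21 at each of the lower concentrations is thus not read as a response of the list. At 250 ppm 3 of the 21 rose and 7 fell, with a list median of -0.21 against -0.02 for all probes. Those that rose included the cytokine Il6 (2.46 ± 0.34) and the monocyte chemokine Ccl2 (2.07 ± 0.31), and those that fell included the NF-kB inhibitor Nfkbia (-0.36 ± 0.07) and the subunit Relb (-0.41 ± 0.09).

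Genes of the circadian clock moved in the same lungs. Dbp, a transcription factor driven directly by the clock, had a median of 72.8 CPM at 0 ppm (17.3 to 151.6), 417 at 10 ppm, 456 at 30 ppm, 298 at 100 ppm and 293 at 250 ppm, with the lowest library of those groups at 145.9 CPM. At 1 ppm, where Vcam1 was not lower, Dbp stayed at 26.7 to 60.7 CPM. Nfil3, a repressor in antiphase with Dbp, went from 18.3 to 46.1 CPM at 0 ppm to 10.5 to 16.4 CPM at 10 ppm. Across the 70 lungs log2 CPM of Vcam1 31980 and Dbp had a Pearson r of -0.82, and across the 20 unexposed lungs -0.64. These libraries share depth and scaling, and no collection time is given in the labels.

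With log2 Dbp as a covariate, the change of Vcam1 31980 was -0.21, -0.25, -0.27 and -0.32 at 10, 30, 100 and 250 ppm, smaller than without it at each concentration. In lungs at 400 ppm of 1,4-DCB Dbp was also high, at 250 to 399 CPM against 24.9 to 163 in their controls, and there Vcam1 31980 was -0.18 ± 0.08. Time of collection and concentration cannot be told apart here.

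In the 1,4-DCB series the lung showed no called change of Vcam1. Vcam1 31980 ranged from 300 to 413 CPM at 0 ppm with a median of 342, and had 241, 309, 314, 335 and 358 CPM at 400 ppm. Only 1 library of the 5 lay below the controls, and the change of -0.18 had a 95% interval of -0.34 to -0.02 with an adjusted p of 0.26. Vcam1 30862 gave -0.17 ± 0.11 (adjusted p = 0.51). At 1, 10, 50 and 150 ppm Vcam1 31980 was at +0.07, +0.05, +0.07 and -0.07. In the 6 lung contrasts outside 10 to 250 ppm of 1,2-DCB, 0.726% of probe tests passed, so few lung probes changed there. At 400 ppm of 1,4-DCB alone the share was 2.61%. Against the 0 ppm mice of both series together, the value at 400 ppm was -0.25. It is given without a test, since this pooling was chosen after seeing the data. It also takes in the 0 ppm lungs of the 1,2-DCB series, which had a part in the choice of Vcam1.

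**Figure D2:**
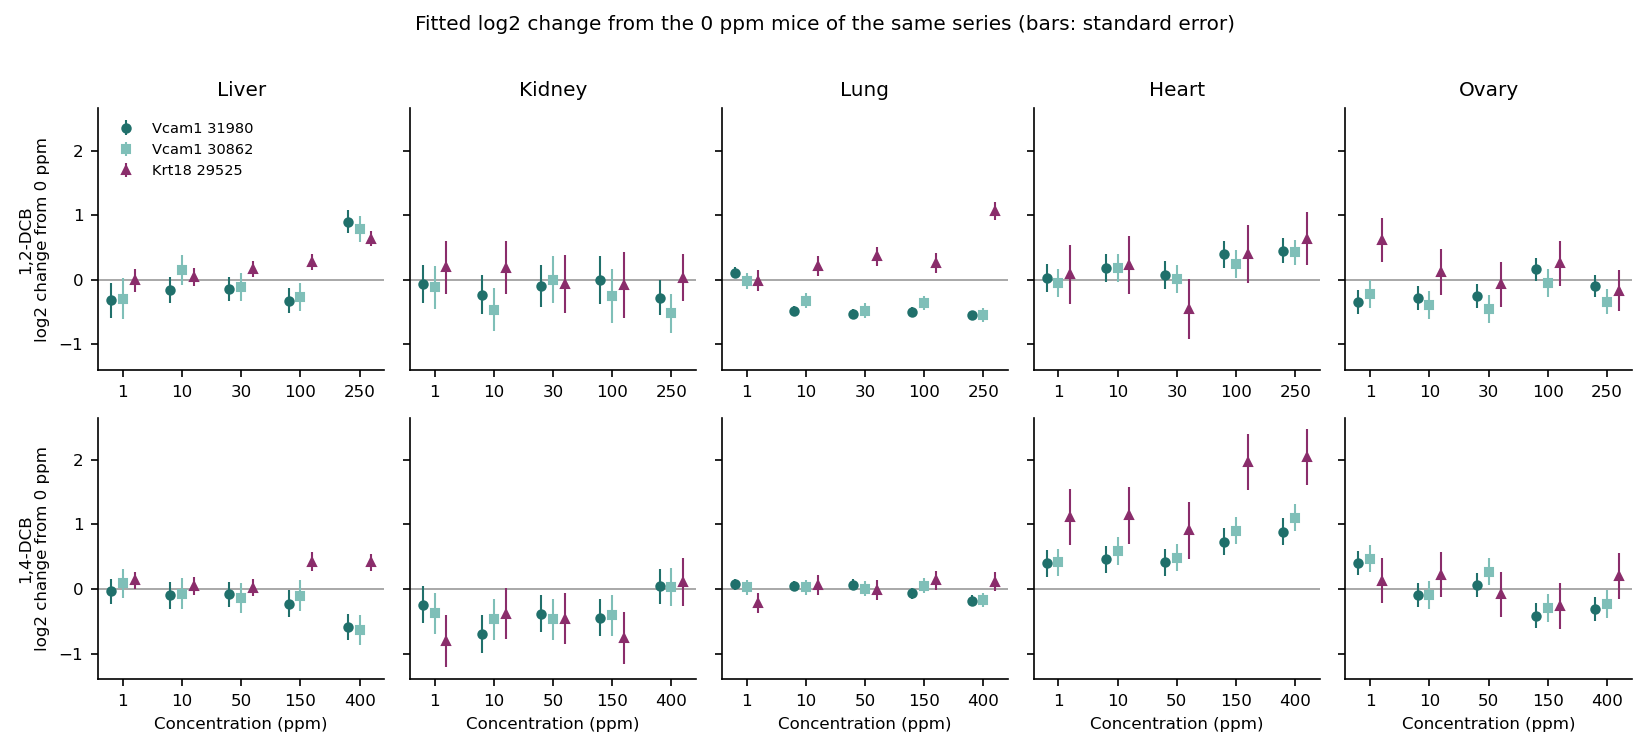
Log2 change from the 0 ppm mice of the same series (vertical axis) by concentration in ppm for both Vcam1 probes and Krt18, with standard errors as bars; tissues are columns and compounds rows. Vcam1 lies below 0 in lung from 10 ppm of 1,2-DCB (-0.48), above 0 in liver at 250 ppm (0.90) and in heart at 150 and 400 ppm of 1,4-DCB (0.73 and 0.88).

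Krt18 went the other way from Vcam1 in the lung, and at the highest concentration of 1,2-DCB. It ranged from 671 to 1501 CPM at 0 ppm with a median of 1102 (mean 1105 ± 237, n = 10). The 6 lungs at 250 ppm had 1490, 1737, 1989, 2177, 2443 and 4046 CPM (mean 2314 ± 911). All but the lowest of them lay above every control, and the log2 difference was +1.07 ± 0.14. From 1 to 100 ppm the differences were -0.01, +0.21, +0.37 and +0.26 (SE 0.15 to 0.17). With 1,4-DCB they lay between -0.21 and +0.13, and the lungs at 400 ppm ranged from 942 to 1814 CPM (+0.12 ± 0.15).

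Krt8, the filament partner of Krt18, rose in the same lungs from a median of 302 to 598 CPM (0.99 ± 0.12). In all, 4 of 7 probes of a list of keratin and filament genes rose and none fell, with a median of 0.52 against -0.02 for all probes, of which 32.6% passed. The others that rose were Krt19, a keratin of ducts and airways (0.69 ± 0.13), Dsg2, a cadherin of desmosomes (0.61 ± 0.13), and Lmnb1, a nuclear lamin that is high in dividing cells (0.52 ± 0.10). Of 5 epithelial junction probes 3 rose: the protease inhibitor Spint1 (0.58 ± 0.08), E-cadherin, Cdh1 (0.34 ± 0.10), and the claudin Cldn7 (0.25 ± 0.10). In CPM of the total count the Krt18 difference was larger, +1.49.

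**Figure D3:**
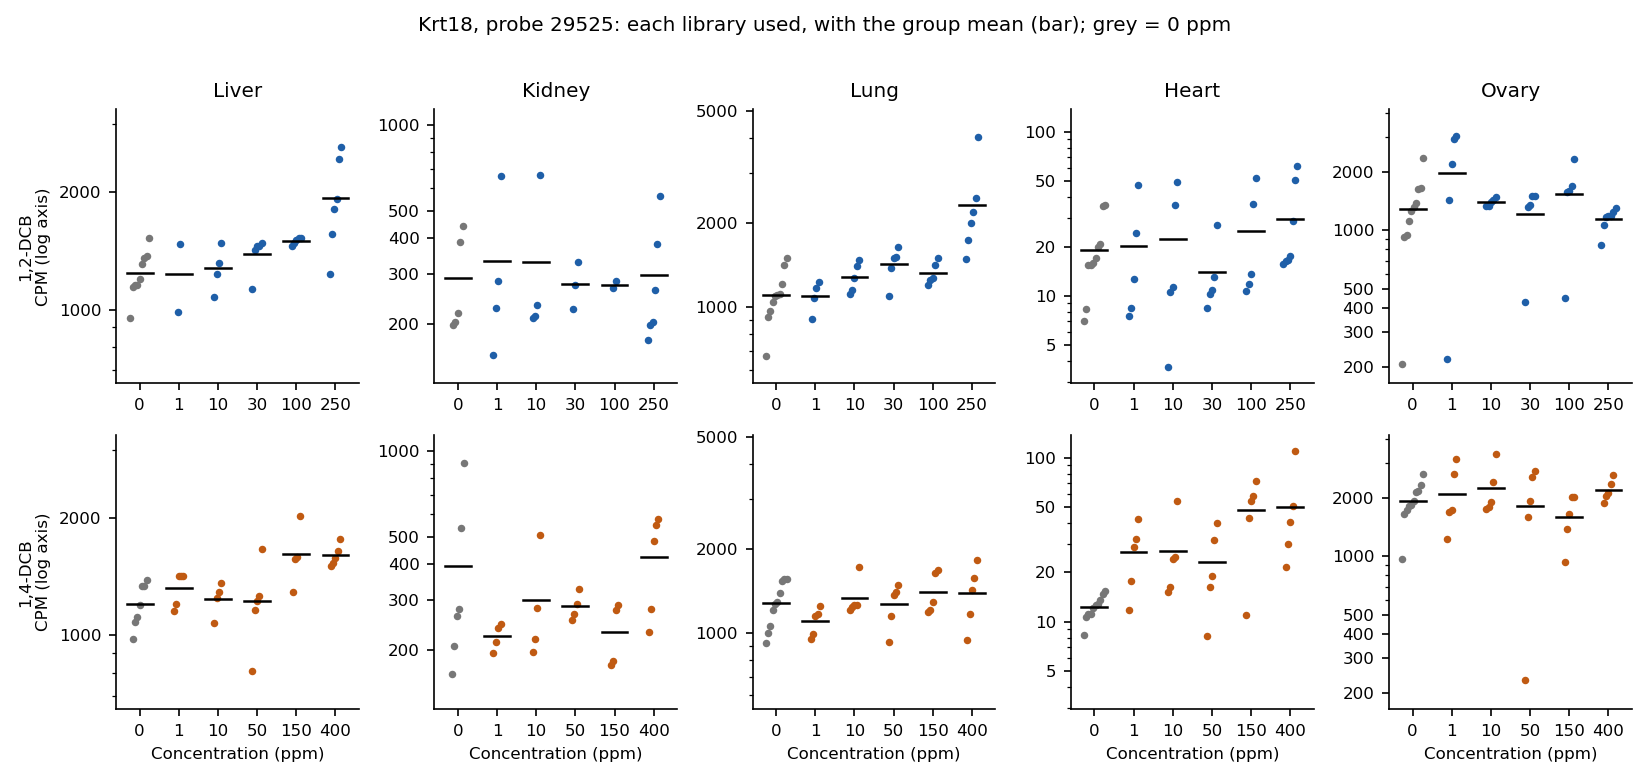
Krt18 in every used library, in CPM scaled within each tissue (log axis), against the concentration in ppm, with 1,2-DCB above and 1,4-DCB below. Points are mice, bars group means and grey the 0 ppm mice. Lungs at 250 ppm of 1,2-DCB reach 1490 to 4046 CPM, and hearts at 400 ppm of 1,4-DCB 21.6 to 110 CPM.

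In the liver, Vcam1 rose with 250 ppm of 1,2-DCB and fell with 400 ppm of 1,4-DCB, while Krt18 was higher with both. At 250 ppm Vcam1 31980 had 23.02, 24.3, 32.7, 73.3, 78.4 and 91.9 CPM against 21.6 to 37.5 CPM at 0 ppm (median 29.2). The means were 53.9 ± 30.6 (n = 6) and 28.8 ± 4.65 (n = 9), and the change was 0.90 ± 0.17 (adjusted p = 1.5e-05). The group was split: 3 livers lay above every control and 3 inside the control range. Vcam1 30862 had 8.76, 11.5, 11.99, 23.3, 24.8 and 28.5 CPM against 6.77 to 14.5 (0.79 ± 0.20, adjusted p = 0.0008), and the same 3 mice were high. At this concentration 49.8% of 2601 probes passed, so a called change was about as common as none.

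The 3 livers with high Vcam1, from animals 503, 507 and 508, also had the highest counts of a macrophage and a stromal gene. Each of these genes was the closest to a Vcam1 probe by correlation over these same livers, so their values are not separate support. Cd68, a lysosomal protein of macrophages, was at 269, 164 and 205 CPM in them, at 101, 96.8 and 63.8 CPM in the other 3 and at 25.8 to 82.6 CPM in controls. Lum, the collagen-binding proteoglycan lumican, was at 103.6, 132.1 and 141.8 CPM in them, at 29.6, 53.6 and 29.9 in the other 3 and at 28.3 to 43.3 in controls. Across all 61 livers Vcam1 31980 and Cd68 had a Pearson r of 0.79, and across the 16 unexposed livers 0.45.

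The marker lists as a whole did not all move that way. Cd68 was the only 1 of 6 macrophage probes that rose (1.68 ± 0.20), and the summed macrophage counts were 498 to 2318 CPM at 0 ppm and 460 to 1732 at 250 ppm. Of 5 stromal probes 4 rose, among them the collagen gene Col1a1 (2.52 ± 0.32) and Lum (1.19 ± 0.18), with sums of 48.9 to 76.5 CPM at 0 ppm and 55.5 to 344 at 250 ppm. Of 8 endothelial probes 7 fell, Kdr by -0.61 ± 0.09, and their sums of 147.4 to 192 and 98.5 to 127.7 CPM did not overlap. Of 5 hepatocyte probes 4 fell. Of all probes 49.8% passed in this contrast. The part of these cell types in the Vcam1 change was not tested.

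Among 13 leukocyte adhesion probes of the liver at 250 ppm, where 49.8% of all probes passed, 2 rose and 2 fell. Icam1, a ligand of the beta2 integrins that is induced by the same cytokines as Vcam1, rose by 0.60 ± 0.13, and Itgb2 by 1.37. The endothelial genes Pecam1 (-0.60 ± 0.12) and Vwf, von Willebrand factor (-0.69 ± 0.17), fell. Of 21 NF-kB and tumour necrosis factor probes 2 rose and 7 fell, the latter including Nfkbia (-0.92 ± 0.10), the subunit Rela (-0.73), the kinase Chuk (-0.43) and the cytokine Il1b (-1.89). Beside the 49.8% of all probes, neither count is read as a response of its list.

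With 400 ppm of 1,4-DCB, liver Vcam1 31980 had 15.3, 15.6, 15.9, 17.5 and 17.998 CPM against 17.5 to 27.3 CPM at 0 ppm (median 26.8). The means were 16.5 ± 1.22 (n = 5) and 24.7 ± 3.64 (n = 7), with 4 of 5 livers below all controls, and the change was -0.58 ± 0.20 (adjusted p = 0.019). Vcam1 30862 had 4.66, 4.74, 4.97, 6.45 and 7.60 CPM against 6.74 to 11.9 CPM (-0.64 ± 0.23, adjusted p = 0.029). In this contrast 31.6% of probes passed. Both calls are lost with the 11 unused livers added (-0.55, adjusted p = 0.051, and -0.66, adjusted p = 0.14). That of Vcam1 30862 is also lost without animal 2 of the controls or animal 501, 502 or 503 at 400 ppm (adjusted p 0.061 to 0.071).

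Macrophage genes fell with Vcam1 there. Of 6 macrophage probes 4 fell, among them the complement genes C1qa (-0.95 ± 0.21) and C1qb (-0.82), the leukocyte phosphatase Ptprc (-0.75) and the lysozyme Lyz2 (-0.92). The sums were 524 to 680 CPM at 0 ppm and 306 to 366 at 400 ppm and did not overlap. Endothelial probes fell in 2 of 8 cases. Of all probes 31.6% passed in this contrast. The part of either cell type in the change of Vcam1 was not tested.

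At lower concentrations of both compounds no Vcam1 change passed in liver: with 1,2-DCB the values of Vcam1 31980 from 1 to 100 ppm lay between -0.32 and -0.14, and with 1,4-DCB from 1 to 150 ppm between -0.23 and -0.04. In these 8 liver contrasts 5.32% of probe tests passed, with the largest share, 18.8%, at 100 ppm of 1,2-DCB.

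Liver Krt18 had 1231 to 2615 CPM at 250 ppm of 1,2-DCB against 954 to 1530 CPM at 0 ppm (median 1198), and 5 of 6 livers lay above all controls (+0.64 ± 0.12). At 400 ppm of 1,4-DCB it had 1512 to 1765 CPM against 981 to 1392 CPM, without overlap (+0.41 ± 0.13), and at 150 ppm the difference was +0.42 ± 0.14. Krt8 rose at both top concentrations, by 0.93 ± 0.10 with 1,2-DCB, from 191 to 236 CPM in controls to 317 to 577, and by 0.60 ± 0.12 with 1,4-DCB. Of 7 keratin and filament probes 3 rose and 1 fell with 1,2-DCB, where 49.8% of all probes passed. With 1,4-DCB, where 31.6% of all probes passed, 2 rose and 1 fell. Lmnb1 rose in both (1.70 ± 0.11 and 0.87), and the mesenchymal filament gene Vim, vimentin, in the former (1.32 ± 0.23).

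In the heart, Vcam1 rose at the 2 highest concentrations of 1,4-DCB and Krt18 was higher there. Vcam1 31980 ranged from 50.8 to 71.3 CPM at 0 ppm with a median of 55.1 (mean 56.2 ± 6.21, n = 10). At 150 ppm the hearts had 43.1, 95.1, 98.4, 113.1 and 117.5 CPM (0.73 ± 0.21, adjusted p = 0.0076), and at 400 ppm 65.9, 74.5, 119.1, 128.7 and 130.3 CPM (0.88 ± 0.21, adjusted p = 0.0035; 0.72, adjusted p = 0.073, with the Dbp covariate). All but the lowest heart of each group lay above every control. The share of all probes that passed was 27.2% at 150 ppm and 13% at 400 ppm of 2454.

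Vcam1 30862 showed the same hearts high. It ranged from 10.1 to 18.5 CPM at 0 ppm with a median of 13.04. It had 13.2, 22.7, 25.2, 27.4 and 37.8 CPM at 150 ppm (0.90 ± 0.21, adjusted p = 0.0016) and 19.1, 20.1, 30.3, 35.5 and 40.2 at 400 ppm (1.10 ± 0.21, adjusted p = 0.00034). At 400 ppm the groups did not overlap. At 1, 10 and 50 ppm the values of both probes lay between 0.40 and 0.59 and none passed (adjusted p 0.35 to 0.80). Without animal 405 at 150 ppm, the changes there no longer passed (0.71, adjusted p = 0.060, for 30862 and 0.64, adjusted p = 0.084, for 31980).

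Krt18 was low in hearts, at 8.35 to 15.4 CPM at 0 ppm with a median of 12.4 (mean 12.3 ± 2.07). It had 10.96, 42.96, 54.2, 58.7 and 72.7 CPM at 150 ppm (+1.96 ± 0.43) and 21.6, 29.6, 40.6, 50.5 and 110 CPM at 400 ppm (+2.04 ± 0.43). All hearts at 400 ppm and 4 of 5 at 150 ppm lay above all controls. The heart of animal 404 was the lowest at 150 ppm for all 3 probes. At 1, 10 and 50 ppm the differences were +1.12, +1.14 and +0.91 (SE 0.44).

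Markers of other cell types moved in these hearts, where 27.2% of all probes passed at 150 ppm and 13% at 400 ppm. Adipocyte probes rose in 3 of 3 cases at 150 ppm and 2 of 3 at 400 ppm, among them the hormone Adipoq (6.09 and 4.99) and the lipid droplet gene Cidec (5.71 and 4.73). Their sums were 233 to 296 CPM at 0 ppm, 186 to 1453 at 150 ppm and 202 to 915 at 400 ppm. Stromal probes rose in 5 of 5 cases at 150 ppm and 2 of 5 at 400 ppm, with sums of 575 to 871, 864 to 2128 and 739 to 1664 CPM. Cardiomyocyte probes fell in 2 of 3 cases at 150 ppm and none at 400 ppm, with sums of 250226 to 301108, 53222 to 227550 and 152810 to 275040 CPM. Of the mesothelial markers only Krt19 was measured, at 2.05 to 4.24, 3.37 to 18.6 and 2.11 to 20.6 CPM. The part of adipose, stromal or mesothelial tissue in the Vcam1 and Krt18 values was not tested.

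Keratin, epithelial junction and adhesion lists were read beside the 27.2% and 13% of all probes that passed at 150 and 400 ppm. Of 7 keratin and filament probes 4 rose at 150 ppm and 3 at 400 ppm, with medians of 0.97 and 1.02 against 0.02 and 0.01 for all probes: Krt8 (2.09 ± 0.51 and 2.34), Krt19 (1.69 and 1.54) and Vim (0.97 and 1.02) in both, and Krt7, another keratin of simple epithelia, at 150 ppm (1.58). Of 3 epithelial junction probes 2 rose in both, Spint1 (2.59 and 3.95) and the tricellular junction gene Lsr (1.53 and 1.26). Of 13 leukocyte adhesion probes 5 rose at 150 ppm and 2 at 400 ppm, with medians of 0.52 and 0.43. These included Alcam, an immunoglobulin-family adhesion molecule (1.37 and 1.11), Icam1 (0.52 ± 0.17 at 150 ppm) and Vwf (0.92 at 150 ppm). Of 21 NF-kB and tumour necrosis factor probes 3 rose and 1 fell at 150 ppm, and 4 rose at 400 ppm.

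With 1,2-DCB at 250 ppm heart Vcam1 did not pass against its own controls: 31980 was at 0.45 ± 0.19 (adjusted p = 0.13) and 30862 at 0.43 ± 0.19 (adjusted p = 0.16). Krt18 was at +0.64 ± 0.40, with 15.6 to 62.1 CPM in the 7 hearts. The controls of that series were wider, with 45.3 to 150 CPM of Vcam1 31980 and 7.03 to 35.8 CPM of Krt18. Against the 0 ppm mice of both series, a choice made after seeing the data, Vcam1 at 250 ppm was at 0.66 (adjusted p = 0.0034) and 0.72 (adjusted p = 0.0014). Krt18 was at +0.96. The added 1,4-DCB controls had lower means, 56.2 against 74.9 CPM for Vcam1 31980 and 13.5 against 20.2 for 30862. This contrast thus mixes series with exposure, and no rise is read from it. By the same controls the 1,4-DCB changes were smaller, 0.53 and 0.68 for Vcam1 31980 at 150 and 400 ppm (adjusted p = 0.033 and 0.013). In the heart at 250 ppm of 1,2-DCB 8.88% of 2454 probes passed. Over the 8 heart contrasts other than 150 and 400 ppm of 1,4-DCB, 1.58% of probe tests passed.

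In the kidney no Vcam1 change passed in any of 10 contrasts, in which 1.44% of probe tests passed. Vcam1 31980 at 0 ppm of the 1,4-DCB series had 50.7, 62.8, 64.98, 70.3, 76.0 and 203 CPM, and at 400 ppm 52.4, 54.5, 55.8, 59.4 and 228 CPM. A single kidney in each group thus lay far above the others, and Vcam1 30862 was high in the same 2 (81.5 and 79.0 CPM). Without these 2 kidneys, a choice made after their values were seen, Vcam1 30862 at 250 ppm of 1,2-DCB was at -0.53 with an adjusted p of 0.008, against -0.52 and 0.29 with them. Neither kidney belongs to the 1,2-DCB groups, which share an estimate of the spread with the 1,4-DCB groups. As both were left out for their Vcam1 values, nothing is read from the lower adjusted p.

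Those 2 kidneys, from animals 2 and 505, were also high in Icam1 (286 and 207 CPM, others of the 2 groups 63.9 to 93.04), in Ctss, cathepsin S of antigen-presenting cells (166 and 100), and in Ccr2, the monocyte receptor for Ccl2 (52.9 and 52.01 by 1 of its 3 probes). Krt18 was at 905 and 576 CPM in them, in each case the highest value of the group. The value of 905 was also the highest of all used kidneys (155.5 to 905). Across 51 kidneys Vcam1 31980 and Icam1 had a Pearson r of 0.87. Icam1, Ctss and Ccr2 were among the genes closest to Vcam1 over these same kidneys, so their high values are not separate support. None of the 13 leukocyte adhesion probes passed at either top concentration in kidney, where 11.7% of all probes passed at 250 ppm of 1,2-DCB and 1.03% at 400 ppm of 1,4-DCB.

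In the ovary no Vcam1 change passed in 10 contrasts either, and group medians of Vcam1 31980 lay between 106.2 and 186 CPM. Over these contrasts 1.66% of probe tests passed, 450 in all. Of these, 432 were at 250 ppm of 1,2-DCB, where 15.9% of 2713 probes passed. Krt18 varied most between single ovaries rather than between groups. It was at 206 CPM in an unexposed mouse of the 1,2-DCB series, 220 at 1 ppm, 427 at 30 ppm and 452 at 100 ppm of 1,2-DCB, and 231 at 50 ppm of 1,4-DCB, against 838 to 3331 in all other ovaries. Cdh1 was lowest in the same 5 ovaries, at 8.5, 10.2, 20.7, 23.9 and 8.9 CPM, against at least 34.6 CPM in the others. Across 72 ovaries Krt18 and Cdh1 had a Pearson r of 0.96, and across the 20 unexposed ovaries 0.97. Cdh1 was among the genes closest to Krt18 over these same ovaries, so its low values are not separate support.

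**Figure D4:**
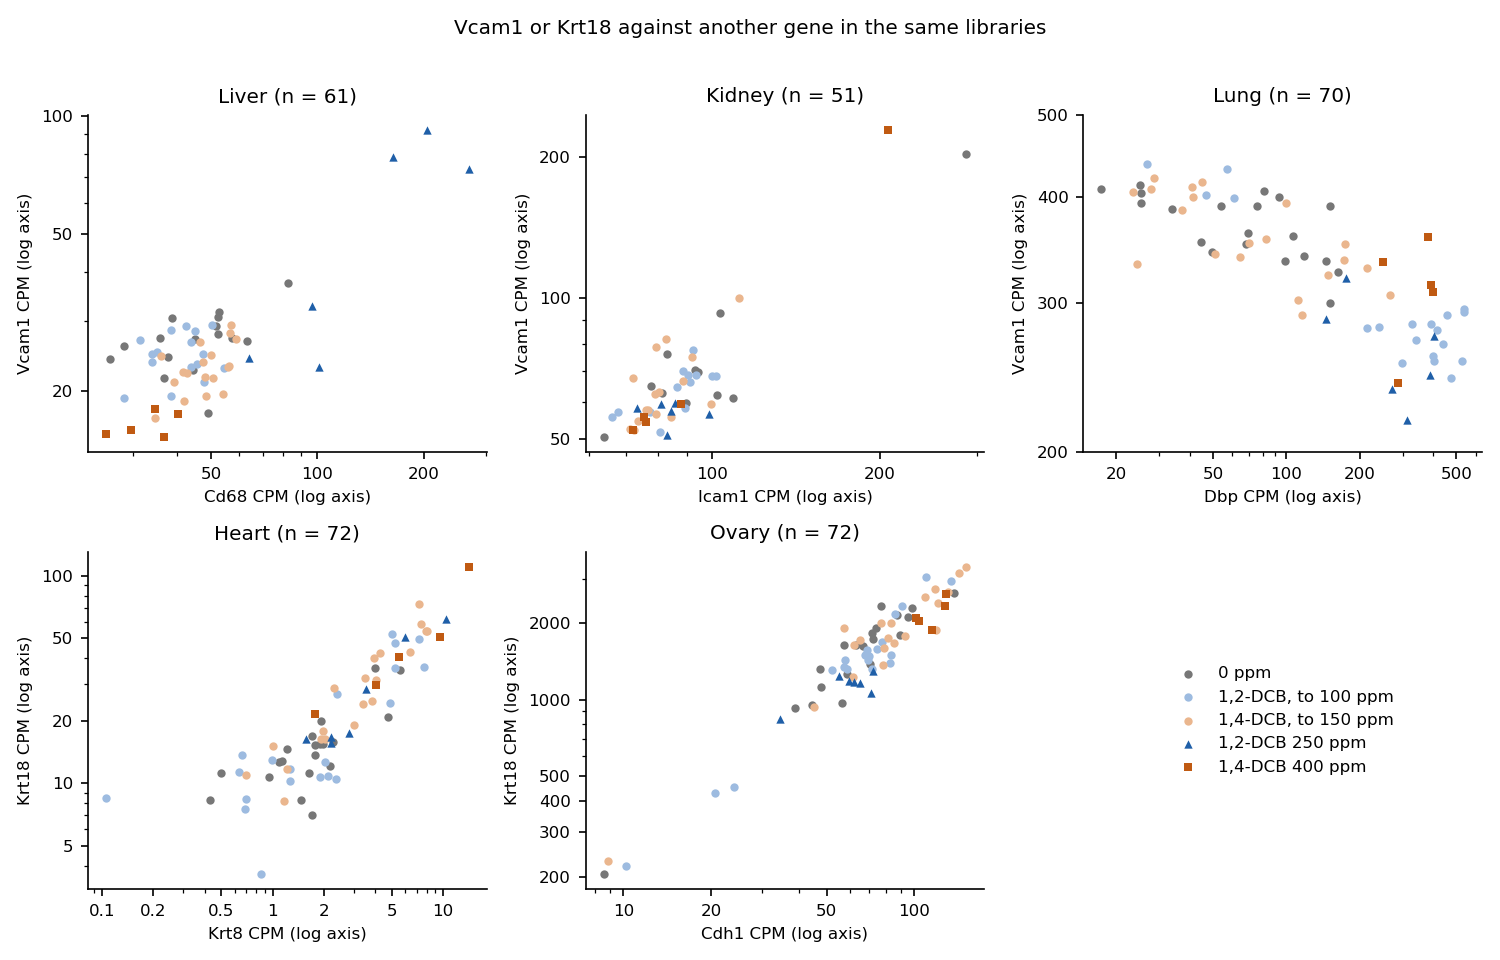
Vcam1 31980 or Krt18 (vertical axes) against another gene of the same libraries (horizontal axes), both in CPM on log axes: Cd68 in liver, Icam1 in kidney, Dbp in lung, Krt8 in heart and Cdh1 in ovary. Each point is a mouse, coloured by group. Pearson r of the log2 values, not centred on the controls, is 0.79, 0.87, -0.82, 0.86 and 0.96.

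The genes whose log2 CPM was most like that of a member within a tissue differed from tissue to tissue for Vcam1. For Vcam1 31980 they were Adm, Ifi44, Nfil3, Lama3 and C230085N15RIK in lung (r 0.78 to 0.74, 70 libraries), and Lum, Alox5ap, Nckap1l, Ccr2 and Tyrobp in liver (r 0.87 to 0.83, 61 libraries). In kidney Icam1, Ccr2, Ctss and Cd44 led (r 0.88 to 0.82, 51 libraries), and in heart Apoe, Foxc1, Timp1 and Bex4 were among the closest (r 0.86 to 0.83, 72 libraries). In ovary no r for Vcam1 31980 was above 0.58. The other Vcam1 probe led with Cd68 in liver (0.76), Gbp6 in lung (0.67), Tmem176b in heart (0.85) and Aldh1a1 in ovary (0.66), and the 2 Vcam1 probes correlated with each other at 0.80 to 0.91 in the 5 tissues.

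For Krt18, Krt8 came first in liver (0.83) and lung (0.88) and was among the closest 5 in ovary (0.93), where Spint1 (0.96) and Cdh1 (0.95) led. S100a6 led in kidney (0.92), followed by Akr1b8 (0.86) and Krt19 (0.85). In heart the leading gene was Mbp (0.94). Without centring, Krt18 and Krt8 had an r of 0.86 in heart, or 0.73 in the 20 unexposed hearts. Over the 60 group means of all tissues, which mainly reflect tissue, Vcam1 31980 was most like Ifngr1 and Ecscr (0.96) and Krt18 most like Ugt1a7c (0.98). All these coefficients are descriptions of libraries that share depth, scaling and exposure.

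The isomers can be compared at the 2 concentrations they share, 1 and 10 ppm, which gave 30 comparisons for 3 probes in 5 tissues. In lung at 10 ppm the change of Vcam1 31980 with 1,4-DCB exceeded that with 1,2-DCB by 0.53 ± 0.11, and that of Vcam1 30862 by 0.35 ± 0.16. Both are given without a test, since Vcam1 was chosen from the 1,2-DCB lungs. In liver, kidney, heart and ovary no Vcam1 comparison passed with adjustment over all probes, and 0.321% of all probe tests passed. For Vcam1 31980 in ovary at 1 ppm the difference was 0.74 with an interval of 0.22 to 1.26 (adjusted p = 1.0), and for Vcam1 30862 in kidney at 10 ppm the interval ran from -0.93 to 0.92. At 30 ppm against 50 ppm and above, the doses differ, and no comparison of the isomers was made.

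The 0 ppm mice of the 2 series did not differ in Vcam1 beyond the threshold in any tissue by edgeR, where 1.98% of probe tests passed. The nearest were Vcam1 30862 in heart, lower in the 1,4-DCB series by -0.58 ± 0.18 (adjusted p = 0.068, and 0.038 by DESeq2, which passes), and Vcam1 31980 in ovary (-0.41 ± 0.15, adjusted p = 0.092). Krt18 in heart was at -0.64 ± 0.37. Series and any difference in handling between them cannot be told apart.

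The response of Vcam1 at the top concentration differed between tissues. With 250 ppm of 1,2-DCB, the change of Vcam1 31980 in liver exceeded that in kidney by 0.97 and that in ovary by 0.77, and both differences passed. It exceeded that in heart by 0.26, which did not pass. With 400 ppm of 1,4-DCB, the heart exceeded the liver by 1.58, the lung by 1.02 and the ovary by 1.16 for Vcam1 31980, and by 1.85, 1.23 and 1.302 for Vcam1 30862. The heart exceeded the kidney by 0.99 for 30862, which passed, while kidney minus heart for 31980 was -0.78 (adjusted p = 0.085). Among all probes, 14.4% of such tests between tissues passed. Liver and lung, which went in opposite directions at 250 ppm of 1,2-DCB, differed by 1.27 and 1.14 for the 2 probes, given as a description because of the lung's part in the choice of Vcam1.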

How the data were processed

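TempO-Seq, which counts ligated pairs of detector oligos per targeted RNA, was run on the Mouse S1500+ v1.2 panel, per the labels' protocols. The authors deposited 1 table of raw read counts per probe, adjusted for probe attenuation as the table's title says; per the submitters' processing notes, the tool was Bowtie 1.3.1, and the genome build is not given in the sources used here. Libraries marked by the submitters as not used were left out of the tests. Within each tissue, counts were filtered (filterByExpr over the 12 groups), scaled by TMM and fitted with edgeR 4.0.16 (R 4.3.3) in a quasi-likelihood model; each concentration was compared with the 0 ppm mice of its own compound, with Benjamini-Hochberg adjustment over all probes of a contrast and a threshold of 0.05. CPM are counts per 1e+06 counts of the TMM-scaled library; log2 CPM used a prior count of 2. Tissues were compared in 1 fit over all tissues. The steps were tested on simulated data.

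The 2 genes and the gene lists were chosen with earlier results of these data known. Genes named beside them are up to 4 pathway-list members by smallest p, up to 3 cell-type-list members with most counts, and the 5 genes of highest Pearson r (1 is not reported here); others named were chosen after their values were seen. Animal numbers pair tissues, since the same mice gave all of them: the median correlation of deviations was 0.017 to 0.078 for the same animal. Alternatives were DESeq2 1.42.0, total-count and upper-quartile scaling, no low-count filter, undoing the attenuation, all libraries, a single compound, a Dbp covariate, an animal block and leaving out each library.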

Additional observations from a re-analysis of the deposited data

Results flagged for a closer look

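In groups of 4 to 10 libraries, 17 of 171 sets of values had a single library far from the rest. About 1 in 20, or 8.55, would be met by chance if the sets were independent and the values normal. Both Vcam1 probes were scored in the same libraries, in CPM without a log transform, so 17 is not read as an excess. In kidney these were the high Vcam1 31980 at 0 and 400 ppm of 1,4-DCB (203 and 228 CPM) and Vcam1 30862 in the same libraries (81.5 and 79.0), a low Vcam1 31980 at 250 ppm of 1,2-DCB (50.95) and a high Krt18 at 10 ppm of 1,2-DCB (667). In lung Krt18 was high in 1 library at 250 ppm of 1,2-DCB (4046) and 1 at 10 ppm of 1,4-DCB (1724), and Vcam1 30862 was low in 1 at 250 ppm (53.7). In heart Krt18 stood apart at 30 ppm of 1,2-DCB (27.02) and 10 ppm of 1,4-DCB (54.2). Unexposed hearts had high values of Vcam1 30862 (40.1) and 31980 (150) in the 1,2-DCB series and of 31980 (71.3) in the 1,4-DCB series. Krt18 was low in a liver at 30 ppm of 1,2-DCB (1132) and in an ovary at 30 ppm (427), and Vcam1 31980 was high in an ovary at 10 ppm of 1,2-DCB (163).

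Of 32 tests of Vcam1 responses between tissues at the top concentrations, 13 passed, and 14.4% of such tests passed over all probes. For 1,2-DCB they were liver minus kidney, 0.97 for 31980 and 1.09 for 30862, and liver minus ovary, 0.77 and 0.89. For 1,4-DCB they were liver minus kidney, -0.80 and -0.85, liver minus heart, -1.58 and -1.85, lung minus heart, -1.02 and -1.23, heart minus ovary, 1.16 and 1.302, and kidney minus heart for 30862, -0.99. With the animal as a block, liver minus kidney at 400 ppm no longer passed (-0.60, adjusted p = 0.24 and 0.23), and kidney minus heart at 250 ppm passed for 30862 (-1.14, adjusted p = 0.022).

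Libraries the submitters did not use lay above the highest used 0 ppm library in 7 of 102 values, in CPM with all libraries of a tissue scaled together. Krt18 was at 1553 and 1683 in livers at 1 and 10 ppm of 1,2-DCB, at 1315 in a kidney at 30 ppm and at 1717 in a lung at 1 ppm. Vcam1 30862 was at 32.4 and 17.1 in livers at 0 ppm of 1,2-DCB and 1,4-DCB, and Vcam1 31980 at 50.8 in a liver at 1 ppm of 1,2-DCB. These Vcam1 values rest on 4, 2 and 7 counts, in libraries of 110617, 110984 and 130691 counts that the submitters marked for low depth. High Vcam1 is therefore not read from them.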

How the results depend on the processing

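Of 2238 values under alternatives, 2160 kept their side of the threshold, 45 fell back under it, 25 passed it and 8 reversed, all 8 between unexposed tissues by total counts. The 2160 include changes of sign in which neither value passed the threshold. The causes were not tested. By total counts the unexposed differences for Vcam1 31980 were -1.25 (heart minus ovary), 0.34 (kidney minus heart), -0.91 (kidney minus ovary), -1.59 (liver minus kidney) and -2.49 (liver minus ovary), and for Vcam1 30862 -1.07, 0.86, -0.21, -1.60 and -1.81. For Krt18 they were 0.13 (liver minus lung), -0.38 (liver minus ovary) and -0.50 (lung minus ovary). With the animal as replicate block, liver minus ovary for Vcam1 31980 was -0.21 (adjusted p = 0.045), with all libraries -0.26, and the block lost the calls of liver minus kidney at 400 ppm (-0.60 for both Vcam1 probes) and added kidney minus heart at 250 ppm for 30862 (-1.14); of the tests of Vcam1 it changed no other call. In lung with 1,2-DCB, Vcam1 31980 by total counts was -0.39, -0.42, -0.19 and -0.13 from 10 to 250 ppm, and with the Dbp covariate -0.21 and -0.25 at 10 and 30 ppm. Vcam1 30862 was -0.35, -0.042 and -0.11 from 30 to 250 ppm by total counts, -0.27 and -0.19 at 30 and 100 ppm with Dbp, and at 100 ppm -0.36 with all libraries and -0.35 with upper-quartile scaling. The isomer difference of Vcam1 31980 in lung at 10 ppm was 0.51 by total counts. In liver at 400 ppm Krt18 was 0.38 with all libraries and 0.32 by total counts, Vcam1 31980 -0.55 with all libraries, and Vcam1 30862 -0.57 with Dbp and -0.66 with all libraries. Vcam1 31980 in heart at 400 ppm was 0.72 with Dbp, which lost the call, and the heart difference between control series for 30862 was -0.58 by DESeq2, which gained it. Leaving out each library gave, in lung from 10 ppm, -0.51 to -0.46, -0.56 to -0.50, -0.51 to -0.47 and -0.62 to -0.51 for Vcam1 31980, and -0.51 to -0.40, -0.39 to -0.32 and -0.56 to -0.48 from 30 ppm for 30862. Krt18 gave 0.83 to 1.17 at 250 ppm. In heart at 150 and 400 ppm Krt18 gave 1.76 to 2.22 and 1.53 to 2.24, Vcam1 31980 0.64 to 0.91 and 0.79 to 1.01, and 30862 0.71 to 1.06 and 0.95 to 1.22. In liver at 250 ppm they gave 0.53 to 0.72, 0.70 to 1.05 and 0.63 to 0.91, and at 400 ppm 0.37 to 0.45, -0.65 to -0.56 and -0.77 to -0.56. Counts of called probes that moved by over 1.5 times were, in lung, 23 with Dbp, 27 by total counts, 28 with a single compound and 32 with all libraries against 52 at 10 ppm; 70 with Dbp, 75 by total counts and 81 with a single compound at 30 ppm (4.57% of probes in the main test); 793 by total counts and 103 with a single compound against 180 at 100 ppm; and 1397 by total counts against 898 at 250 ppm. At 400 ppm they were 168 by total counts against 318 in heart and 514 with all libraries against 823 in liver. Leaving out libraries was not run for the other contrasts, the isomer and control comparisons. Controls of both series and the kidney fit without 2 libraries were chosen after seeing the data.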
